A study of Mus musculus with 24 samples.

Results

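The response to DMXAA was compared between bone marrow-derived dendritic cells (BMDCs) and bone marrow-derived macrophages (BMDMs) of the WT label, using 10 of the 24 libraries of the series: 3 control (CT) and 3 DMXAA (DX) libraries of BMDCs, and 2 of each for BMDMs. BMDMs were grown with supernatant of L929 fibroblasts and BMDCs with GM-CSF and IL-4. Cell type and culture medium therefore cannot be told apart in any comparison here. The mice were tamoxifen-treated Tmem173 fl/fl animals of the WT label, which carry the floxed gene and no Cre, and the other label (CRE) adds an inducible Cre driven by Lyz2. DMXAA is given as 40 µM in the series text and in µg/mL in the study's methods, so the concentration is uncertain, and the duration is not stated for these libraries in the sources used here. Control libraries received no agonist. Members were chosen by their labels. The BMDM libraries numbered 3 were left out. Macrophage transcripts were nearly absent from them, as given below.

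DMXAA is an agonist of mouse STING, the endoplasmic reticulum protein encoded by Tmem173. Activated STING recruits the kinase TBK1, which phosphorylates the transcription factor IRF3, and it also engages NF-kB. IRF3 and NF-kB induce interferon beta and inflammatory cytokines, and secreted interferon then acts through its receptor on interferon-stimulated genes. GM-CSF acts through STAT5, and interferon gamma induces genes such as the guanylate-binding proteins, Ciita and Socs1.

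Both cell types changed many transcripts under DMXAA, and most genes called in both moved the same way. Of 12708 genes tested, 3958 passed the test in BMDCs (31.1%, of which 2120 rose and 1838 fell) and 3591 in BMDMs (28.3%, of which 1951 rose and 1640 fell) by edgeR's quasi-likelihood test at an adjusted p under 0.05. The balance of rises and falls depends on the scaling. With libraries scaled by total counts, an alternative chosen after seeing the data, 1411 of 5250 BMDC calls and 1277 of 5759 BMDM calls were rises. The 2544 genes called in both made up 64.3% of the BMDC calls and 70.8% of the BMDM calls. Without BMDM DMXAA replicate 1, 2204 BMDM responses were called. Of the genes called in both, 2522 moved in the same direction (19.8% of the genes tested) and 22 in opposite directions (0.173%).

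The difference between the 2 responses was tested gene by gene as the BMDC log2 response minus the BMDM log2 response, which is the cell type by DMXAA interaction. It was called for 211 genes (1.66% of those tested). For 169 of these (1.33%) the response was more positive in BMDMs, among them Gm8113, Tnfaip8l3, Slfn1, Hdc, Ccl5, Mx1, Socs1, Ciita, guanylate-binding proteins and, with smaller differences, genes of MHC class I presentation. For 42 genes (0.331%) it was more positive in BMDCs, among them Gpr183, Lrp8, Rhob, Tnfsf9, Stat5a and Tnfaip3. With the replicate number as a block within cell type, 1279 differences were called (10.1%, 448 more positive in BMDCs and 831 in BMDMs), including all 211. When libraries were scaled by total counts the median response of all genes moved to -0.361 in BMDCs and -0.568 in BMDMs, and 172 differences were called, with 52 more positive in BMDCs. Responses below are relative to a median near 0 (0.0053 and -0.0088). The labels do not say that libraries of a group came from separate cultures or animals, so p-values measure only the spread between these libraries. Leaving out 1 library at a time gave 63 to 275 calls, with the lowest count without BMDM DMXAA replicate 1, and the sign of all 211 was kept in each of these fits. The count moved by over 1.5 times in 6 further omissions. It was 107 without BMDM control replicate 1, and 127, 103 and 109 without BMDC control replicates 1, 2 and 3. Without BMDC DMXAA replicates 1 and 3 it was 123 and 106.

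**Figure D1:**
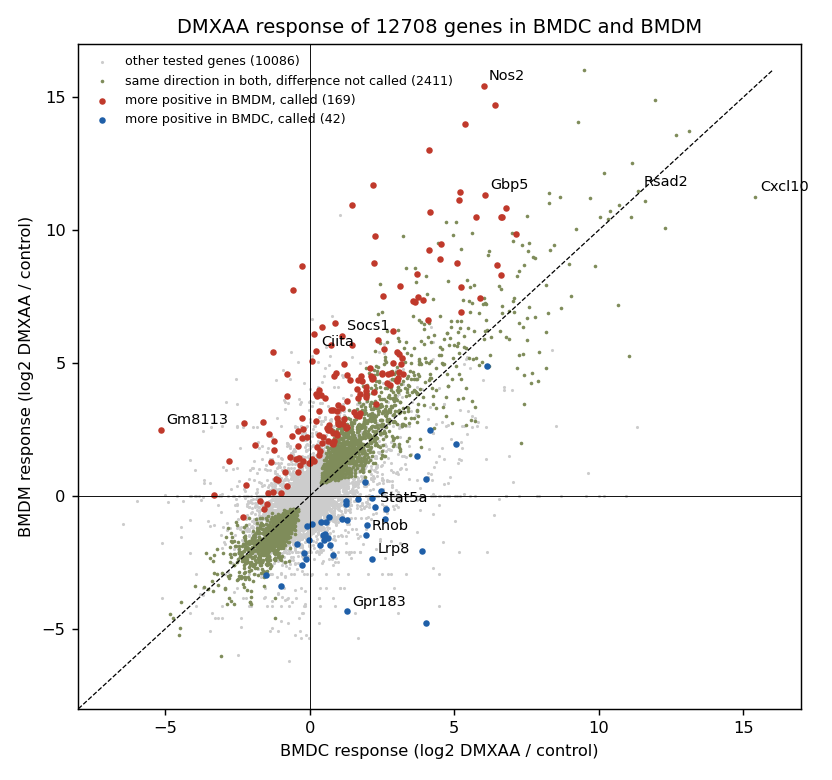
Each point is 1 of 12708 genes, with its fitted log2 response to DMXAA in BMDCs (x axis) and in BMDMs (y axis), and the dashed line marks equal responses. Red points (169) were called as more positive in BMDMs, blue points (42) as more positive in BMDCs, green points rose (1344) or fell (1067) in both cell types with no called difference, and grey points are the remaining genes.

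Total counts of the 10 libraries ranged from 16470157 to 18912887. The median of the macrophage marker list was 676 to 694 CPM, counts scaled to the total of each library, in the 4 BMDM libraries and 63.4 to 119.9 in the 6 BMDC libraries, and that of the dendritic cell list was 0.192 to 2.35 and 117.5 to 324. Zbtb46, a transcription factor of conventional dendritic cells, had 25.3 to 49.9 CPM in BMDCs, whereas Flt3 had at most 3.43 there. The macrophage complement subunits C1qa, C1qb and C1qc had at most 0.278, 14.5 and 4.34 in BMDCs. Other macrophage genes were well detected in BMDCs. Lyz2 had 5359 to 8108 CPM and Adgre1 138.5 to 374.4 there, against 5588 to 15860 and 651.9 to 1077 in BMDMs. In the WT-labelled BMDM libraries numbered 3 the macrophage list was at 0.667 and 0.740 and the fibroblast list at 483 and 657. The fibroblast list also differed between the BMDM libraries used, at 31.2 (CT) and 24.7 (DX) in number 2 against 3.16 and 1.40 in number 1. Its part in the results was not tested. With number 1 as the only BMDM library of each group, which is assumed to vary like the other groups, 272 differences were called, with 82 more positive in BMDCs. They included 137 of the 211. The mast cell or basophil gene Cpa3 had 67.0 to 383 CPM in BMDCs and at most 0.486 in BMDMs. The summed level of the 8 mast cell or basophil genes was 90.8 to 479 CPM in BMDCs and 1.03 to 3.12 in BMDMs, and its part in the results was not tested. Cpa3 made up much of that sum. The median of the list was 0.278 to 4.59 CPM in BMDCs and at most 0.0304 in BMDMs. In bulk RNA, fewer cells of a type and less RNA per cell cannot be told apart.

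Tmem173 itself had 112.7, 63.7 and 78.0 CPM in BMDC control and 117.5, 76.2 and 78.7 under DMXAA, on the scaling used for tests (trimmed mean of M values, TMM, used for all CPM from here on). In BMDMs it had 32.0 and 22.2 in control and 66.7 and 48.97 under DMXAA. The BMDC groups overlapped and the BMDM groups did not. Its log2 response was 0.10 ± 0.27 (SE) in BMDCs and 1.09 ± 0.33 in BMDMs (adjusted p = 0.83 and 0.034, edgeR). The difference of -0.99 ± 0.42 was not called (adjusted p = 0.36, edgeR), but was called with the replicate block (adjusted p = 0.0081).

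The regions before the start sites of 5 genes are shown here because they stand for the 3 patterns described below. Gbp5 (chr3:142496684-142496933, plus strand) and Socs1 (chr16:10785537-10785786, minus strand) rose more in BMDMs, Gpr183 (chr14:121965194-121965443, minus strand) and Tnfaip3 (chr10:19015411-19015660, minus strand) were more positive in BMDCs, and Ifit1 (chr19:34640639-34640888, plus strand) rose in both. Each line gives the 250 bases before the RefSeq start (GRCm38.p6), 5′ to 3′ on the gene's strand, with matches to any of 3 motifs in capitals. The motifs are the letters of an interferon-stimulated response element (ISRE, GAAA, NN and GAAA in a row), a gamma-activated sequence (GAS, TTCNNNGAA) and an NF-kB site (GGG, NN and TTTCC in a row), with N any base, searched on both strands.
Gbp5: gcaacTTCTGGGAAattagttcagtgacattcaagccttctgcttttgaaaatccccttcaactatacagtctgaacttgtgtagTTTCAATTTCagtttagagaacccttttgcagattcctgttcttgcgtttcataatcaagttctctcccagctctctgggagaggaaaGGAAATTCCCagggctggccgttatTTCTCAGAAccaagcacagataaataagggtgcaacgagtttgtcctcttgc
Socs1: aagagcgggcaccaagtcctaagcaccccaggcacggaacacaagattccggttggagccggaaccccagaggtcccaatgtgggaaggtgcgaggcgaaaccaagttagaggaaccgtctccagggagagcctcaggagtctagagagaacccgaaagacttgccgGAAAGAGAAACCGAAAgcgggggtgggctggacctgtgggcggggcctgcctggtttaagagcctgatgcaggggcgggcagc
Gpr183: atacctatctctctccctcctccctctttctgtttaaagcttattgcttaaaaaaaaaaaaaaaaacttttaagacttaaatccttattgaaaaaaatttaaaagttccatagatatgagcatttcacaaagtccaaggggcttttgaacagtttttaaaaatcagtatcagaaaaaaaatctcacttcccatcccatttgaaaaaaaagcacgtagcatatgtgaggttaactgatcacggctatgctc
Tnfaip3: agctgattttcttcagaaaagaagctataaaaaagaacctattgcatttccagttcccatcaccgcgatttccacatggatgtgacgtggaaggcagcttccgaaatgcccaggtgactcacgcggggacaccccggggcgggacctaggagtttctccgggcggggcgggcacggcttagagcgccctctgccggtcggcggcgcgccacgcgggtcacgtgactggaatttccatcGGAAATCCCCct
Ifit1: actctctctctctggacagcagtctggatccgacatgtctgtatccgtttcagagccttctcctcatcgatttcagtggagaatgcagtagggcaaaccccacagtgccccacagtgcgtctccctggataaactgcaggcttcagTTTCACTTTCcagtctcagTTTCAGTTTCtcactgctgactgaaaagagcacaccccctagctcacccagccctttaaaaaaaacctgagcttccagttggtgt

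Gbp5 held an ISRE match at -165 to -156, GAS matches at -245 to -237 and -52 to -44 and an NF-kB match at -77 to -68, counted from the start site. Socs1 held 2 overlapping ISRE matches between -83 and -68, and Ifit1 held ISRE matches at -104 to -95 and -85 to -76. Tnfaip3, shown by the upstream of its 2 windows, held an NF-kB match at -12 to -3, and Gpr183 held none of these letters. Over windows from 250 bases before to 50 after the start, available for 8912 genes tested, an ISRE match was present in 4.31%, a GAS match in 8.26% and an NF-kB match in 2.17%. Among 129 genes with a called difference more positive in BMDMs the shares were 14.7%, 17.1% and 4.65%. Among 1016 genes that rose in both cell types with no called difference they were 10.4%, 9.45% and 3.15%. Of 33 genes more positive in BMDCs, 2 held an ISRE match, 3 a GAS match and 2 an NF-kB match. These shares are descriptions of letters in a window and were not tested.

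Guanylate-binding proteins and other interferon-induced GTPases defend cells against intracellular microbes. Gbp5 (ENSMUSG00000105504, chromosome 3, 142493978 to 142522344, GRCm38), which promotes inflammasome assembly, had 15.4, 13.8 and 15.8 CPM in BMDC control and 759, 1067 and 1175 under DMXAA. In BMDMs it went from 1.07 and 0.599 to 2668 and 1640. Control levels were thus higher in BMDCs and DMXAA levels higher in BMDMs, with no overlap in either condition. The log2 response was 6.06 ± 0.30 in BMDCs and 11.33 ± 0.47 in BMDMs, and the difference was -5.27 ± 0.45 (adjusted p = 0.0013, edgeR). Mx1, a gene of the dynamin-like GTPase family, had 35.7, 31.3 and 32.6 CPM in BMDC control and 703, 1521 and 1327 under DMXAA. In BMDMs it had 1.02 and 1.34 against 3005 and 2323. The difference was -5.98 ± 0.48 (adjusted p = 0.0013, edgeR). Both calls were kept when any of the 10 libraries was left out.

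Several of these genes had no more than 3 counts in every BMDM control library, so the rise in BMDMs is a lower bound computed against that floor of 3 counts per library. Gbp4 had 230 and 146 CPM in BMDMs under DMXAA and 0 in both controls, against 1.58, 2.25 and 2.01 in BMDC control and 104, 226 and 164 under DMXAA. The log2 rise in BMDMs was thereby larger than in BMDCs, with a difference of at most -4.003 (adjusted p = 0.012, edgeR). Tgtp1, an immunity-related GTPase, went from 0 in both BMDM controls to 156 and 72.5, and from 0.920, 0.294 and 0.489 to 26.4, 23.4 and 21.6 in BMDCs, a difference of at most -4.30. The Tgtp1 call was lost without BMDM control replicate 1 (adjusted p = 0.052, edgeR). Tgtp1 and several guanylate-binding proteins have near-identical relatives whose reads the counting could split, so their levels are less certain. Slfn1, a Schlafen family gene linked to lymphocyte quiescence, went from 0 and 0.0461 to 289 and 214 in BMDMs and from 11.1, 43.7 and 27.4 to 330, 658 and 464 in BMDCs, a difference of at most -6.68 (adjusted p = 0.0079, edgeR).

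Socs1 (ENSMUSG00000038037, chromosome 16, 10782240 to 10785536), which blocks JAK signalling downstream of interferon receptors, was well expressed in resting BMDCs at 139.6, 161.6 and 168.6 CPM and reached 294, 411 and 307 under DMXAA. Resting BMDMs had 1.39 and 3.73, and DMXAA-treated BMDMs 221 and 114. The rise was 1.11 ± 0.33 against 6.03 ± 0.50 on the log2 scale, a difference of -4.92 ± 0.56 (adjusted p = 0.0042, edgeR). Ciita, the master regulator of MHC class II transcription, showed a similar arrangement of levels. It had 56.3, 49.2 and 35.7 CPM in BMDC control and 57.3, 40.8 and 65.8 under DMXAA, which overlapped, but rose from 0.139 and 0.323 to 10.9 and 9.88 in BMDMs. The difference was -5.23 ± 0.49 (adjusted p = 0.0018, edgeR), and BMDMs under DMXAA remained below every BMDC library.

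This arrangement was common among the 169 genes. In control, 159 of them were higher in BMDCs than in BMDMs (51.1% of all genes tested were), with a median log2 difference of 1.54 against 0.015 over all genes tested. Under DMXAA, 115 of the 169 were lower in BMDCs, with a median of -0.69 against 0.0065. The distance between the cell types was larger in control than under DMXAA for 111 of them. Of the 169, 103 rose in both cell types, 42 rose in BMDMs and were not called in BMDCs, 11 fell in BMDCs and rose in BMDMs, 11 fell in BMDCs only, and 2 fell in both. A level difference in control enters the interaction by construction, so these counts describe the called genes and are no separate support.

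**Figure D2:**
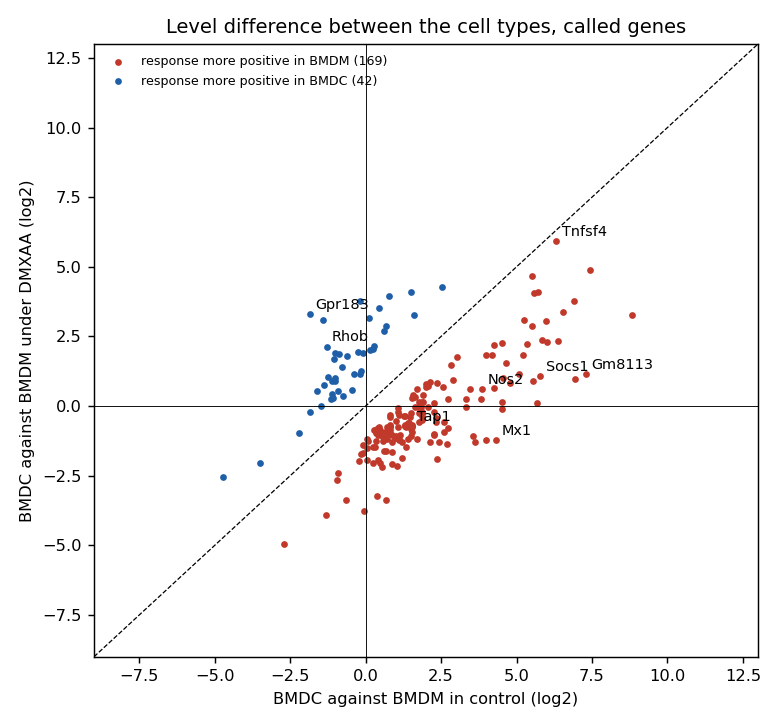
Each point is a called gene, with its log2 level in BMDCs against BMDMs in control (x axis) and under DMXAA (y axis), and the dashed line marks no change of that difference. Most red genes (169, response more positive in BMDMs) sit at the right, higher in resting BMDCs, and 115 of them lie below 0 under DMXAA, whereas 37 of the 42 blue genes (response more positive in BMDCs) lie above 0 under DMXAA.

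MHC class I presentation moved in the same way. Of 20 genes on the list, 19 rose in BMDCs and 19 in BMDMs, and 7 had a called difference, all more positive in BMDMs. Calr was the gene not called in either response. The median response was 1.78 in BMDCs and 3.24 in BMDMs, against 0.0053 and -0.0088 over all genes tested. Of all genes tested, 16.7% rose and 14.5% fell in BMDCs, and 15.4% rose and 12.9% fell in BMDMs. A difference was called for 1.66% of all genes tested, and for 10.1% with the replicate block. Counts of this and the later lists stand beside these shares. Tap1, a subunit of the transporter that loads peptides into the endoplasmic reticulum, had 104.1, 105.4 and 99.1 CPM in BMDC control and 827, 899 and 924 under DMXAA, against 45.0 and 27.3, then 1663 and 1285, in BMDMs. The difference was -2.25 ± 0.31 (adjusted p = 0.01, edgeR), and it was not called without BMDM DMXAA replicate 1 (adjusted p = 0.058). Tap2, the other subunit, differed by -2.01 ± 0.23 (adjusted p = 0.0042, edgeR). The immunoproteasome subunits Psmb8 and Psmb10 differed by -1.81 ± 0.22 and -1.84 ± 0.26 (adjusted p = 0.0059 and 0.011, edgeR), and both calls were kept whichever library was left out.

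Of the 58 tested interferon-stimulated genes, 58 rose in BMDCs and 57 in BMDMs. In all, 16 differences were called as more positive in BMDMs and 1, Slfn5, as more positive in BMDCs. The median response was 5.19 in BMDCs and 6.25 in BMDMs. Rsad2, which encodes the antiviral enzyme viperin, had 1.89, 3.77 and 3.47 CPM in BMDC control and 5840, 9391 and 8785 under DMXAA, and 3.11 and 11.0 against 23220 and 16410 in BMDMs. The difference was -0.10 ± 0.70 (adjusted p = 1, edgeR). Isg15, a ubiquitin-like modifier, had responses of 9.86 ± 0.48 and 8.63 ± 0.55, and Ifit1, which binds foreign RNA ends, 11.12 ± 0.44 and 10.49 ± 0.52, with differences of 1.22 ± 0.54 and 0.63 ± 0.49 that were not called (adjusted p = 0.38 and 0.73, edgeR). Irf7, the factor that amplifies interferon production, rose by 7.24 ± 0.28 and 8.48 ± 0.36. Its difference of -1.24 ± 0.34 was not called (adjusted p = 0.13, edgeR), but was called with the replicate block (adjusted p = 0.026).

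**Figure D3:**
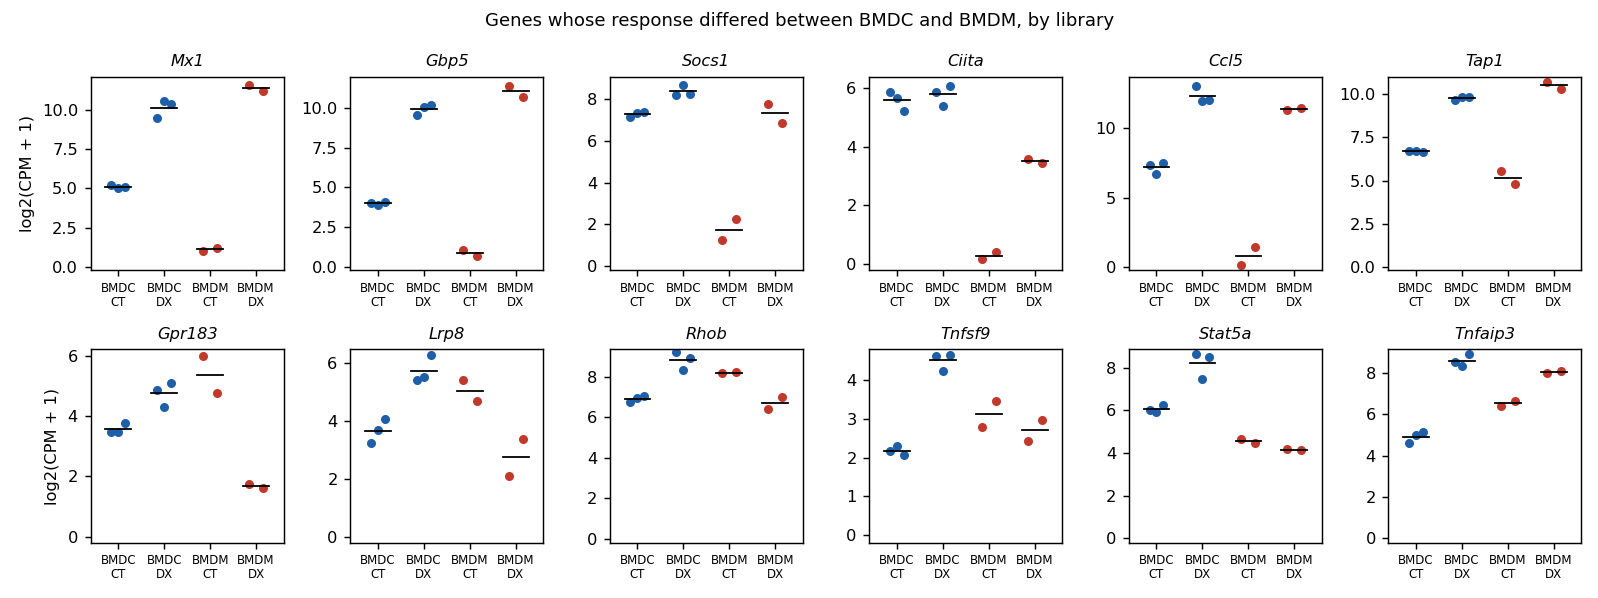
Each panel plots log2(CPM + 1) of 1 gene in the 10 libraries (blue, BMDC; red, BMDM; CT, control; DX, DMXAA), with a bar at the group mean. In the upper row resting BMDCs lie above resting BMDMs and the BMDM rise is the larger, and in the lower row BMDCs rise while BMDMs fall, stay near their control level or, for Tnfaip3, rise less.

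Of 23 chemokines tested, 13 rose in BMDCs and 12 rose and 1 fell in BMDMs, and 2 had a called difference, both more positive in BMDMs. With the replicate block 8 differences were called, 5 of them more positive in BMDCs, against 10.1% of all genes tested. Ccl5, which attracts T cells and monocytes, went from 162, 105 and 181 CPM to 8341, 4035 and 4157 in BMDCs and from 0.139 and 1.75 to 2497 and 2797 in BMDMs. Although the BMDM rise was the larger, with a difference of -6.23 ± 0.91 (adjusted p = 0.012, edgeR), every BMDC library had more Ccl5 under DMXAA than either BMDM library. Ccl4 differed by -1.35 ± 0.23 (adjusted p = 0.021, edgeR), from responses of 3.23 ± 0.16 and 4.58 ± 0.20, and this call was lost in 7 of 10 omissions of a library (highest adjusted p = 0.093, without BMDM DMXAA replicate 1). Cxcl10, a ligand of CXCR3, rose from 0, 0.0490 and 0.0979 to 1755, 3343 and 2301 CPM in BMDCs and from 1.72 and 4.52 to 8365 and 6818 in BMDMs. BMDC control was at the floor, so the BMDC rise was at least 2.76 larger on the log2 scale, a difference that was not called (adjusted p = 0.06, edgeR) but was called with the replicate block (adjusted p = 0.015). On the log2(FPKM + 1) scale the sign turned for Cxcl10, at -0.50 (adjusted p = 0.68, limma). BMDMs under DMXAA had the higher Cxcl10 level in every library.

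Of 17 inflammatory cytokines tested, 13 rose in BMDCs and 9 in BMDMs, and 1 difference was called as more positive in BMDCs and 2 in BMDMs. With the replicate block these were 4 and 3. Il6 had 23.7, 26.9 and 25.9 CPM in BMDC control and 354, 329 and 283 under DMXAA, and 0 and 0.138 against 11.6 and 12.5 in BMDMs. The difference was at most -2.78 on the log2 scale (adjusted p = 0.017, edgeR, and 0.059 without BMDM DMXAA replicate 1), yet BMDC levels stayed above BMDM levels in both conditions. On the log2(FPKM + 1) scale the sign turned, with a difference of 0.93 (adjusted p = 0.05, limma). Tnfsf10, which encodes the death ligand TRAIL, rose by 6.61 ± 0.45 and 10.49 ± 0.65, a difference of -3.88 ± 0.71 (adjusted p = 0.028, edgeR) that was lost in 7 of 10 omissions (highest adjusted p = 0.11, without BMDM control replicate 1). Tnf rose in both, by 3.22 ± 0.31 and 2.71 ± 0.37, with a difference of 0.51 ± 0.45 (adjusted p = 0.78, edgeR). Il1b had 11.2 to 21.3 CPM in BMDC control and 83.5 to 132 under DMXAA, and at most 1.29 in any BMDM library.

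Of the 13 arginine, nitric oxide and itaconate genes tested, 6 rose in BMDCs and 8 rose and 1 fell in BMDMs, and 3 differences were called, all more positive in BMDMs. Nos2, the inducible nitric oxide synthase, had 11.9, 3.43 and 7.39 CPM in BMDC control and 547, 296 and 631 under DMXAA, and 0 in both BMDM controls against 339 and 278. The difference was at most -5.10 (adjusted p = 0.019, edgeR), while the levels under DMXAA overlapped. For Nos2, 4 of 10 omissions lost the call (highest adjusted p = 0.071, edgeR, without BMDM DMXAA replicate 1). Kmo, which makes 3-hydroxykynurenine in tryptophan breakdown, had 45.5, 15.6 and 19.97 CPM in BMDC control and 18.6, 14.7 and 14.2 under DMXAA, but rose from 0.186 and 0.138 to 4.02 and 4.13 in BMDMs, a difference of -5.37 ± 0.73 (adjusted p = 0.009, edgeR). Slc7a2, a cationic amino acid transporter that brings in arginine, differed by -2.25 ± 0.35 (adjusted p = 0.016, edgeR, and 0.088 without BMDM DMXAA replicate 1). Acod1, the itaconate enzyme, rose by 6.55 ± 1.06 and 7.90 ± 1.38, with no called difference (-1.35 ± 1.33, adjusted p = 0.82, edgeR). Its BMDM control libraries stood apart, at 1.07 and 52.6 CPM. Arg1 went from 1196, 778 and 428 CPM to 492, 291 and 129.8 in BMDC libraries 1, 2 and 3, lower under DMXAA for each number, and was below 1 CPM in BMDMs. Its BMDC response was not called (adjusted p = 0.063, edgeR) but was called with the replicate block (adjusted p = 9.02e-05).

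Other genes more positive in BMDMs came from complement, Toll-like receptor and T cell interaction lists. C3, the central complement component, had 208 to 281 CPM in BMDC control and 339 to 518 under DMXAA, which did not overlap, yet the BMDC response of 0.75 ± 0.47 was not called (adjusted p = 0.27, edgeR), whereas BMDMs went from 6.91 and 32.8 to 1376 and 673. The difference was -4.94 ± 0.79 (adjusted p = 0.017, edgeR, and 0.067 without BMDM DMXAA replicate 1). Tlr9, the receptor for unmethylated CpG DNA, went from 4.64 and 3.41 to 133 and 65.2 in BMDMs and from 4.40, 6.17 and 5.68 to 6.38, 8.16 and 15.9 in BMDCs, a difference of -3.72 ± 0.60 (adjusted p = 0.018, edgeR, and 4 of 10 omissions lost it, up to 0.079 without BMDM DMXAA replicate 1). Icam1, an adhesion molecule for leukocytes, differed by -2.16 ± 0.38 (adjusted p = 0.024, edgeR), and 9 of 10 omissions lost the call (highest adjusted p = 0.078). Tnfsf4, the OX40 ligand, had 32.2 to 56.3 CPM in BMDC control and 572 to 942 under DMXAA, and 0 in both BMDM controls against 13.99 and 8.91. Its difference was at most -2.21 (adjusted p = 0.044, edgeR), and 9 of 10 omissions lost the call (highest adjusted p = 0.15, edgeR, without BMDM control replicate 1). On the log2(FPKM + 1) scale the sign turned for Tnfsf4, at 1.21 (adjusted p = 0.20, limma).

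Hdc, which makes histamine, went from 0 and 0.184 CPM to 50.1 and 36.6 in BMDMs and from 9.76, 16.1 and 23.6 to 70.7, 71.7 and 88.6 in BMDCs, a difference of -6.54 ± 0.80 (adjusted p = 0.0058, edgeR). Mast cells and basophils express Hdc, and Cpa3 and the low median of that marker list in BMDCs are given above. In the BMDM libraries, 4 to 6 of the 8 mast cell or basophil genes were at 0. Tnfaip8l3, a phosphoinositide transfer protein, rose from 0.0464 and 0.0461 to 30.1 and 12.5 in BMDMs and overlapped in BMDCs, at 25.0 to 31.95 and 15.3 to 36.0 CPM, which gave a difference of at most -7.54 (adjusted p = 0.0019, edgeR). Rasgrp1, a Ras activator, rose from 0 in both controls to 21.2 and 6.395 in BMDMs and from 16.1 to 29.0 up to 49.3 to 67.4 in BMDCs, a difference of at most -5.16 (adjusted p = 0.015, edgeR, and 0.055 without BMDM control replicate 1).

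The genes with a more positive response in BMDCs were fewer. Of the 42, 15 fell in BMDMs and were not called in BMDCs, 14 rose in BMDCs and were not called in BMDMs, 7 rose in BMDCs and fell in BMDMs, 4 rose in both and 2 fell in both. In control, 31 of the 42 were lower in BMDCs, and under DMXAA 37 were higher there. Gpr183 (ENSMUSG00000051212, chromosome 14, 121952551 to 121965195), an oxysterol receptor that guides immune cell migration, had 10.02, 10.1 and 12.5 CPM in BMDC control and 28.3, 18.89 and 33.1 under DMXAA. In BMDMs it went from 62.4 and 25.9 to 2.33 and 2.07. The groups did not overlap in either cell type and moved in opposite directions, by 1.30 ± 0.32 and -4.33 ± 0.46, a difference of 5.62 ± 0.56 (adjusted p = 0.0019, edgeR).

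Lrp8, a receptor for reelin and apolipoprotein E, rose from 8.48, 11.7 and 15.8 to 41.3, 44.5 and 75.0 CPM in BMDCs and fell from 41.0 and 24.7 to 3.30 and 9.37 in BMDMs, a difference of 4.52 ± 0.66 (adjusted p = 0.013, edgeR). Rhob, an endosomal small GTPase, rose from 107.0, 124.5 and 130.5 to 594, 324 and 488 CPM in BMDCs and fell from 292 and 298 to 84.1 and 128 in BMDMs, a difference of 3.43 ± 0.38 (adjusted p = 0.0038, edgeR). These 2 calls and that of Gpr183 were kept when any library was left out. Bcl2l1, which encodes the survival protein BCL-XL, moved by 0.68 ± 0.16 and -0.79 ± 0.20, and Tsc22d1, a leucine zipper protein, by 1.12 ± 0.23 and -0.85 ± 0.28. Their differences of 1.47 ± 0.26 and 1.98 ± 0.36 (adjusted p = 0.022 and 0.027, edgeR) were lost in 6 and 8 of 10 omissions (highest adjusted p = 0.099 and 0.12, without BMDM DMXAA replicate 1). Sepsecs, which makes selenocysteinyl-tRNA, moved by 0.68 ± 0.22 and -0.93 ± 0.27. Its difference was not called (1.61 ± 0.35, adjusted p = 0.057, edgeR) but was called with the replicate block (adjusted p = 0.0054).

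Other genes rose in BMDCs with no called change in BMDMs. Tnfsf9, the 4-1BB ligand that costimulates T cells, rose from 3.53, 3.92 and 3.18 to 24.0, 17.8 and 24.4 CPM in BMDCs, and had 5.89 and 10.1 against 4.42 and 6.85 in BMDMs, where the groups overlapped. The difference was 3.13 ± 0.44 (adjusted p = 0.01, edgeR). Stat5a, the transcription factor that carries GM-CSF signals, rose from 63.3, 58.9 and 74.4 to 393, 178 and 360 CPM in BMDCs and had 24.4 and 20.8 against 17.1 and 16.54 in BMDMs, a difference of 2.67 ± 0.43 (adjusted p = 0.017, edgeR, and 3 of 10 omissions lost it, up to 0.08 without BMDM DMXAA replicate 1). Pmaip1, the death promoter NOXA, rose by 1.67 ± 0.21 in BMDCs and changed by -0.12 ± 0.27 in BMDMs (difference adjusted p = 0.033, edgeR, lost in 8 of 10 omissions, up to 0.12).

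Tnfaip3, the A20 enzyme that limits NF-kB signalling, rose in both, from 23.1, 31.1 and 34.4 to 358, 319 and 476 CPM in BMDCs and from 84.1 and 98.3 to 248 and 271 in BMDMs. The difference was 2.19 ± 0.32 (adjusted p = 0.012, edgeR, and 0.056 without BMDM DMXAA replicate 1). Nfkbie, an inhibitor of the same pathway, went the other way, with responses of 1.96 ± 0.22 and 3.72 ± 0.28 and a difference of -1.76 ± 0.33 (adjusted p = 0.031, edgeR, lost in 8 of 10 omissions, up to 0.14). Of the 20 NF-kB subunits and feedback genes, 19 rose in BMDCs and 17 in BMDMs, and these 2 differences were the only ones called. With the replicate block 5 were called, 3 of them more positive in BMDCs. Rasa4, a Ras GTPase-activating protein, rose by 4.15 ± 0.18 and 2.49 ± 0.20, a difference of 1.67 ± 0.25 (adjusted p = 0.013, edgeR, and 0.052 without BMDM DMXAA replicate 1). Rnaset2a, a lysosomal ribonuclease with a near-identical copy whose reads may be split, rose by 5.08 ± 0.34 and 1.96 ± 0.41, a difference of 3.12 ± 0.52 (adjusted p = 0.019, edgeR) that was lost in 4 of 10 omissions.

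Many cell division transcripts fell. Of 28 genes for DNA replication and division, 21 fell and 2 rose in BMDCs and 18 fell and 1 rose in BMDMs, with median responses of -1.19 and -1.86. Over all genes tested, 14.5% fell in BMDCs and 12.9% in BMDMs. Differences were called for Tk1 and Mki67. Mki67, the proliferation antigen, had 48.6, 59.1 and 52.5 CPM in BMDC control and 43.9, 43.5 and 54.1 under DMXAA, which overlapped, and fell from 110.6 and 120.0 to 18.5 and 33.3 in BMDMs. The difference was 1.97 ± 0.34 (adjusted p = 0.021, edgeR, and 4 of 10 omissions lost it, up to 0.065 without BMDC control replicate 3). Tk1, a thymidine kinase of dividing cells, differed by 2.32 ± 0.42 (adjusted p = 0.027, edgeR, lost in 8 of 10, up to 0.081 without BMDM DMXAA replicate 1). In the fit with the CRE label added, which includes a BMDC library that stood apart (below), the differences of Mki67 and Tk1 were not called (adjusted p = 0.13 and 0.10, edgeR). Trim59, a ubiquitin ligase, and Dtx4, a ligase of the Notch pathway, fell in BMDMs by 2.21 and 1.85 on the log2 scale and had uncalled BMDC responses of 0.81 ± 0.36 and 0.69 ± 0.27. Their differences of 3.02 ± 0.58 and 2.54 ± 0.44 (adjusted p = 0.034 and 0.022, edgeR) were lost in 9 and 7 of 10 omissions, and with the replicate block the BMDC response of Dtx4 was called (adjusted p = 0.049).

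Of the 22 opposite responses, 9 rose in BMDCs and fell in BMDMs and 13 did the reverse, and 18 also had a called difference. With the replicate block the opposite set held 122 genes, including all 22. Leaving out 1 library gave 10 (without BMDC control replicate 3) to 25. It was 14 without BMDM DMXAA replicate 1, 14 without BMDC control replicate 1 and 12 without BMDC control replicate 2. Among those that fell in BMDCs, Naaa, an enzyme that breaks down N-acylethanolamines, went from 956, 709 and 814 to 286, 371 and 329 CPM, while in BMDMs it went from 13.5 and 22.9 to 42.0 and 46.6. The difference was -2.61 ± 0.34 (adjusted p = 0.0078, edgeR), and it was kept when any library was left out.

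S1pr4 and Gpr55, receptors for sphingosine 1-phosphate and lysophosphatidylinositol, fell by 1.90 and 1.26 on the log2 scale in BMDCs. In BMDMs S1pr4 had 0.603 and 1.198 CPM in control and 1.29 and 5.43 under DMXAA, and Gpr55 0 and 0.0922 against 3.22 and 1.36. Both differences were called (adjusted p = 0.03 and 0.01, edgeR), that of Gpr55 being at most -5.31 on the log2 scale, and the S1pr4 call was lost in 8 of 10 omissions (up to 0.11). Gm8113, a predicted gene, fell from 99.98 to 105.9 down to 1.71 to 4.71 CPM in BMDCs and was at 0.0464 and 0.276 against 1.13 and 0.775 in BMDMs. Cacng8 was likewise at most 0.563 CPM in BMDMs.

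Shared responses were the larger set. Of the 2522, 1451 rose and 1071 fell in both cell types, and with total count scaling 938 of 3979 rose. Fitted rises were larger in BMDMs for 1128 of the 1451, with medians of 2.02 in BMDMs and 1.57 in BMDCs. Fitted falls were larger in BMDMs for 776 of the 1071, with medians of -1.40 in BMDMs and -1.18 in BMDCs. These genes were selected by passing the test in both cell types. BMDMs had fewer libraries in each group, so a gene could need a larger fitted response there to pass. These counts and medians therefore cannot show that BMDMs responded more strongly. A difference was called for 111 of the 2522 shared genes. Its 95% interval lay within -1 and 1 on the log2 scale for 747, or 29.6%. Over all 12708 genes tested it did so for 4102. The remaining shared genes were thus not shown to respond equally. With the replicate block 4072 genes were shared.

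Among shared rises, the 6 genes with the largest fitted responses in both cell types were Cxcl10 and Rsad2, described above, and Cxcl11, Iigp1, Ifit1bl1 and Ifit3b. Controls of Cxcl10, Cxcl11, Ifit1bl1 and Ifit3b were at the floor in at least 1 cell type, so the order and membership are not settled. The bounds for Cxcl11 were rises of at least 7.53 in BMDCs and 10.57 in BMDMs. Cxcl11, a further chemokine gene, was at 0 in all 5 control libraries and had 16.2, 39.5 and 27.0 CPM in BMDCs and 271 and 152 in BMDMs under DMXAA. Iigp1, an immunity-related GTPase, reached 172, 309 and 242 CPM in BMDCs and 1339 and 642 in BMDMs from at most 0.278 in control. Ifit1bl1 and Ifit3b reached 292, 781 and 432 and 101, 204 and 152 CPM in BMDCs and 3114 and 1519 and 1997 and 958 in BMDMs. Both have near-identical relatives, so their counts are uncertain. In each of these 4 genes the BMDM level under DMXAA exceeded every BMDC library.

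Pald1, a phosphatase-like gene, went from 34.6, 49.8 and 40.9 to 1.48, 1.88 and 1.39 CPM in BMDCs and from 49.7 and 22.9 to 1.93 and 1.10 in BMDMs (difference -0.12 ± 0.54). The log2 response was -4.84 in BMDCs and -4.45 in BMDMs for Rab3il1, an exchange factor for Rab GTPases. It was -3.21 and -2.95 for St6gal1, which adds sialic acid to glycoproteins, and -3.95 and -3.37 for Cdca7, a MYC target of dividing cells. None of these differences was called (adjusted p = 0.77 to 0.99, edgeR). Scd2, a fatty acid desaturase, fell from 807, 699 and 522 to 66.2, 69.4 and 41.3 CPM in BMDCs and from 77.8 and 69.2 to 1.45 and 11.4 in BMDMs. Its difference of -0.02 ± 0.85 rested on BMDM libraries that stood apart under DMXAA, and with BMDM number 1 alone it was 2.22 (adjusted p = 0.11, edgeR). B3gnt7, a glycosyltransferase, had at most 0.161 CPM in BMDMs under DMXAA.

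**Figure D4:**
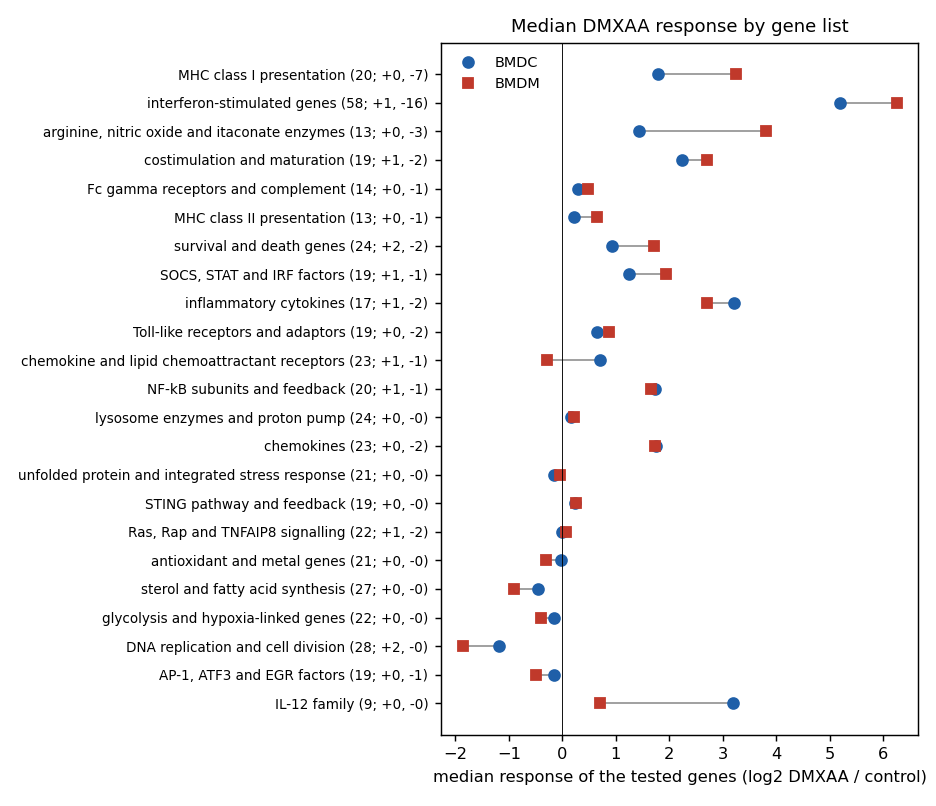
The median fitted log2 response over the tested genes of each list is plotted for BMDCs (blue circles) and BMDMs (red squares). Beside each list stand the number of genes tested and the number with a called difference more positive in BMDCs (+) and in BMDMs (-). MHC class I presentation (1.78 and 3.24) and interferon-stimulated genes (5.19 and 6.25) had the most genes with a called difference. The gap of the IL-12 family medians (3.18 and 0.71) rests on members at the floor in BMDMs, and the median of its gene-by-gene differences was 0.40 with 0 called. Type I interferon genes are left out because their control levels were at 0.

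Type I interferon genes rose in BMDCs, and no size of the difference is given for them because every control library was at the floor in both cell types. Of 9 genes tested, 9 rose in BMDCs and 1, Ifnb1, in BMDMs. Ifnb1 had 39.4, 25.1 and 40.1 CPM in BMDCs under DMXAA and 1.69 and 13.4 in BMDMs. Ifna4 had 13.7, 14.6 and 25.4 CPM in BMDCs and 0 and 0.0646 in BMDMs. Ifna1 had 2.32, 3.76 and 9.61 and Ifna14 2.71, 0.627 and 1.58 CPM in BMDCs, and both were at 0 in the BMDM libraries. The BMDC level under DMXAA exceeded both BMDM libraries for each of these 4 genes, and alpha interferon genes are close copies whose reads the counting could split.

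IL-12 family subunits combine into cytokines that direct T cell responses. Of 9 genes of the family and its receptors tested, 7 rose in BMDCs and 3 in BMDMs. The count of called differences was 0 by edgeR, with 2 at an unadjusted p under 0.05, 0 by limma-voom and 1 by DESeq2. Il12a, Il12b, Il23a and Ebi3 were higher in every BMDC library than in either BMDM library under DMXAA, and Il27 was lower. Il12b, the p40 subunit, went from 0.511, 0.343 and 0.734 to 250, 84.2 and 136 CPM in BMDCs and from 0 to 2.25 and 1.23 in BMDMs. The BMDM rise is a lower bound, so its difference was not determined in direction. Il23a, the p19 subunit, reached 13.7, 5.27 and 9.87 CPM in BMDCs and 0 and 0.129 in BMDMs, and Il12a, the p35 subunit, 2.64, 0.941 and 2.21 against 0 and 0. Il27 had 65.3, 71.2 and 115 CPM in BMDCs and 139 and 134 in BMDMs, from at most 0.882 in control (difference -1.09 ± 0.87, adjusted p = 0.74, edgeR). Ebi3, which pairs with Il27, rose by 1.63 ± 0.23 in BMDCs, and its BMDM response of 0.71 ± 0.28 was not called (adjusted p = 0.088, edgeR, and 0.042 with the replicate block).

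**Figure D5:**
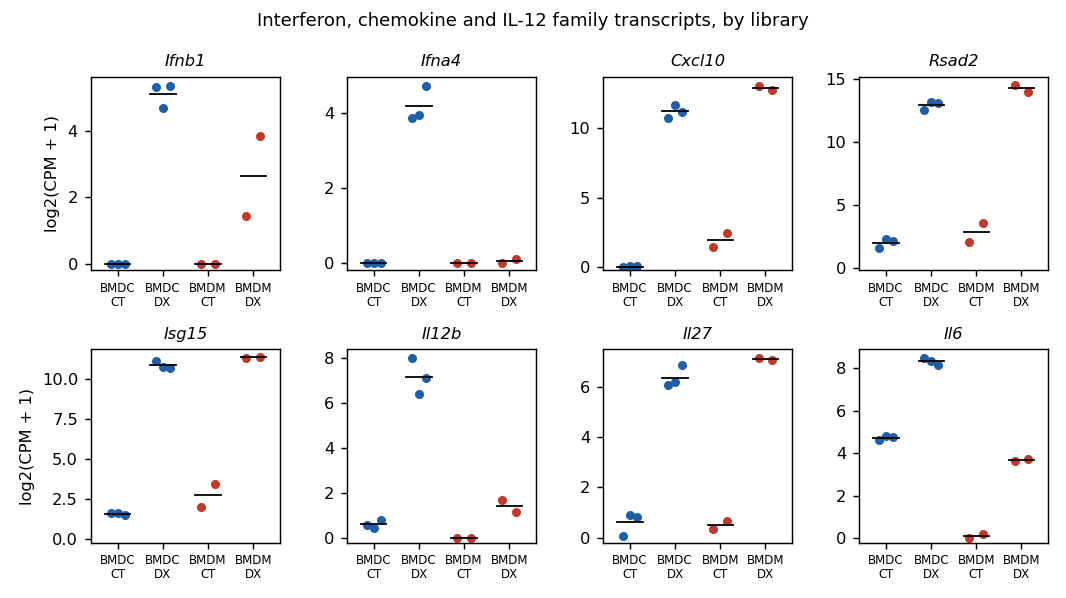
Each panel plots log2(CPM + 1) of 1 gene in the 10 libraries (blue, BMDC; red, BMDM; CT, control; DX, DMXAA), with a bar at the group mean. Ifnb1, Ifna4, Il12b and Il6 under DMXAA lie higher in every BMDC library than in either BMDM library, and Cxcl10, Rsad2, Il27 and, by a smaller margin, Isg15 lie higher in BMDMs.

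Of 19 costimulatory and maturation genes tested, 15 rose in BMDCs and 9 in BMDMs, with 1 difference called as more positive in BMDCs (Tnfsf9) and 2 in BMDMs (Icam1 and Tnfsf4). Cd86 went from 192, 51.5 and 83.4 to 768, 339 and 413 CPM in BMDCs and from 5.24 and 22.5 to 292 and 359 in BMDMs, and Cd40 reached 731, 505 and 586 and 931 and 889. Their differences of -2.34 ± 0.93 and -1.82 ± 0.65 were not called (adjusted p = 0.32 and 0.25, edgeR) but were called with the replicate block (adjusted p = 0.0084 and 0.029). Ccr7, which guides dendritic cells to lymph nodes, had 159 to 301 CPM in BMDC control and 681 to 1336 under DMXAA and at most 0.322 in BMDMs.

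Metabolic and stress lists of 19 to 27 genes held no called difference by edgeR. With 1.66% of all genes called, lists of this size hold few calls, so these counts do not set the lists apart. Of 27 sterol and fatty acid genes tested, 10 fell and 3 rose in BMDCs and 13 fell and 4 rose in BMDMs. Their differences numbered 0 called and 7 at an unadjusted p under 0.05 by edgeR, and 3 were called by DESeq2. For glycolysis (22 genes) edgeR called 0, with 5 at an unadjusted p under 0.05, and DESeq2 0. For lysosome genes (24) these counts were 0, 0 and 0, for antioxidant genes (21) 0, 2 and 0, for unfolded protein response genes (21) 0, 4 and 2, and for STING pathway genes (19) 0, 4 and 2. By limma-voom 0 were called in each of these lists. The block called several of their members, among them Mvd of the mevalonate pathway (1.26, adjusted p = 0.015, edgeR), the sterol exporter Abcg1 (-1.71, 0.0094), the unfolded protein response factor Xbp1 (-0.85, 0.018), Chac1 of the integrated stress response (-3.19, 0.015) and the folate carrier Slc19a1 (-1.41, 0.018).

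The same interaction was fitted in the CRE label, from 10 further libraries with BMDM number 3 left out. CRE BMDC replicate 2 stood apart. Chi-square per degree of freedom (over genes, between libraries of a cell type and treatment) to the other CRE replicates was 133.5 and 140.9 in control and 158.3 and 122.1 under DMXAA, against 18.8 and 53.8 between replicates 1 and 3. In control its neutrophil genes summed to 375.5 CPM against 81.7 and 53.7 in the others, and its macrophage genes to 2243 against 8975 and 7667. In raw counts Tmem173 had 430 and 400 in CRE BMDM control and 349 and 377 under DMXAA, against 690, 481, 829 and 758 in the WT libraries, and 855 to 1734 in CRE BMDCs against 1215 to 2204. Of 12525 genes tested, 30 differences were called (0.24%, with 22 more positive in BMDCs, 0.176%, and 8 in BMDMs, 0.0639%), and 785 BMDM responses (6.27%). Of the 169 WT genes more positive in BMDMs, 166 were tested, 138 had the same sign and 5 were called, with a median BMDM response of 1.86 in CRE against 3.81 in WT and a median BMDC response of 1.197 against 1.01. Of the 42 more positive in BMDCs, all were tested, 39 had the same sign and 2 were called. Over all genes tested in both labels, 48.4% had a more positive CRE response in BMDMs. Lrp8 (3.05, adjusted p = 0.036) and Mx1 (-4.43, adjusted p = 0.047) were among those called by edgeR in both labels, and the change of the interaction between labels was not tested. Without CRE BMDC replicate 2, an alternative chosen after seeing the data, 1526 CRE differences were called (12.2%, 691 more positive in BMDCs and 835 in BMDMs), including all 30, and 2917 BMDM responses. Of the WT genes more positive in BMDMs, 137 then had the same sign and 67 were called, and of those more positive in BMDCs, 39 and 23. The counts of the CRE label thus depended on that library, and they are not read as fewer or more than those of the WT label. Between the 2 CRE BMDM replicates that chi-square was 3.23 in control and 4.95 under DMXAA, against 92.3 and 69.2 in WT. So little spread between 2 libraries can understate the error, and the CRE calls carry that limit.

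Some CRE libraries of BMDCs lay close to WT libraries, and whether they share cells or animals was not tested. Chi-square per degree of freedom was 14.2 or more for all pairs among the 10 WT libraries. It was 3.33 and 4.18 between BMDC WT replicate 3 and CRE replicate 1 in control and under DMXAA, and 4.77 and 4.27 between WT replicate 2 and CRE replicate 3. These pairs differed by more than sampling noise but by less than any WT replicates did, and values of the 2 labels in BMDCs are therefore not read as independent. The 2 CRE BMDM replicates, given above, were about as close to each other.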

How the data were processed

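Polyadenylated RNA of bone marrow-derived macrophages and dendritic cells was sequenced by the study in 24 libraries, of which 10 were used here. Per the labels the authors' processing used CASAVA 1.8, fastp, HISAT2 2.0.5, featureCounts 1.5.0-p3 and DESeq2 1.20.0 with the mouse build GRCm38 (mm10), and strandedness is not given in the sources used here. The authors deposited raw read counts per gene and FPKM values (fragments scaled by gene length and library size) for 54532 genes. The deposited table also holds log2 fold changes, p-values and adjusted p-values of the authors' own comparisons and group means, in 60 columns that were not used.

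Counts were fitted as deposited with edgeR 4.0.16 (quasi-likelihood test, TMM scaling, 4 groups, R 4.3.3), for genes with at least 1 FPKM in at least 2 of the 10 libraries, with Benjamini-Hochberg adjustment. The interaction is the BMDC minus the BMDM log2 response. Where every library of a group had at most 3 counts, the difference is a bound computed against 3 counts per library. DESeq2 1.42.0 and limma 3.58.1 were alternatives, limma also on log2(FPKM + 1). Total counts were 16470157 to 18912887, and scripts were tested on simulated data. There the test of the difference called 5 of 100 set 2-fold differences and 44 of 100 set 4-fold ones. An uncalled difference is thus not shown to be absent.

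The labels do not say whether replicate numbers pair control and DMXAA libraries. The main fit took a mean per group and did not pair them. Deviations from the group mean correlated between control and DMXAA libraries of the same number at 0.67, 0.42 and 0.54 in BMDCs. The value was 0.67 in BMDMs, where 2 numbers make the check weak. For different numbers in BMDCs it was between -0.57 and 0.25. Deviations cancel within a group, so positive same-number values lower the different-number ones by construction, and that contrast is no separate support for pairing. The fit with the number as a block within cell type was an alternative.

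Genes named were, among those with a group mean of at least 5 FPKM, the 8 largest fitted called differences in each direction with at least 1 FPKM in a group of each cell type, the 6 leading opposite genes of each pattern, the 6 leading shared rises and falls, a fixed list of cytokine and STING genes, and up to 4 leading members of each gene list. Those named besides, such as marker genes and the list members Calr and Slfn5, were chosen after their values were seen. Some of the genes so chosen are not reported here. The members, lists and motifs were chosen with earlier results of these data known. Promoter windows came from RefSeq (GRCm38.p6).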

Additional observations from a re-analysis of the deposited data

Results flagged for a closer look

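The response to DMXAA differed between BMDCs and BMDMs, by the test of the difference itself, for 211 genes of the WT label, and 22 genes were called in both cell types in opposite directions. The groups hold 2 or 3 libraries, so no library was tested for standing apart within its group. The values here are BMDC minus BMDM log2 responses of named genes, all called by edgeR at an adjusted p under 0.05.

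The response was more positive in BMDMs for Gm8113 (-7.62), Hdc (-6.54), Ccl5 (-6.23), Mx1 (-5.98), Kmo (-5.37), Gbp5 (-5.27), Ciita (-5.23), C3 (-4.94), Socs1 (-4.92), Tnfsf10 (-3.88), S1pr4 (-3.81), Tlr9 (-3.71), Naaa (-2.61), Batf2 (-2.53), Slc7a2 (-2.25), P2ry14 (-2.25), Tap1 (-2.25), Icam1 (-2.15), Tap2 (-2.01), Mlkl (-1.88), Psmb10 (-1.84), Psmb8 (-1.81), Nfkbie (-1.76), Ccl4 (-1.35) and Myd88 (-1.32). For Tnfaip8l3 (-7.54), Slfn1 (-6.68), Gpr55 (-5.31), Rasgrp1 (-5.16), Nos2 (-5.10), Tgtp1 (-4.30), Gbp4 (-4.00), Il6 (-2.78) and Tnfsf4 (-2.21) the value is the bound nearest 0, because BMDM controls were at the floor of 3 counts. BMDM controls were near that floor for Gm8113 (1 and 6 counts), Hdc (0 and 4), Kmo (4 and 3), Ciita (3 and 7) and Tnfsf10 (6 and 7). For Ccl5 (3 and 38 counts) 1 control was at the floor, and its value ranged from -8.94 to -5.35 when 1 library was left out. Gm8113 had only 14 and 12 counts in BMDMs under DMXAA. The sizes of these values are uncertain.

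The response was more positive in BMDCs for Bcl2l1 (1.47), Rasa4 (1.67), Pmaip1 (1.79), Mki67 (1.97), Tsc22d1 (1.98), Tnfaip3 (2.19), Tk1 (2.32), Dtx4 (2.54), Stat5a (2.67), Trim59 (3.02), Rnaset2a (3.12), Tnfsf9 (3.13), Rhob (3.43), Lrp8 (4.52) and Gpr183 (5.62). Of the 49 named genes called, 20 kept the call when any library was left out, 9 lost it in 1 omission and 20 in more than 1, with Icam1, Tnfsf4 and Trim59 losing it in 9 of 10.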

How the results depend on the processing

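Counts are given in the order differences, BMDC responses, BMDM responses, opposite and shared genes, against 211, 3958, 3591, 22 and 2522. The replicate block within cell type gave 1279, 6025, 5563, 122 and 4072, and for the CRE label 522 differences against 30. Without CRE BMDC number 2, added after seeing the data, these were 1526. Without a filter on low values 830 differences and 63 opposite genes were called, with DESeq2 674 and 40, and at an adjusted p under 0.01 the counts were 44, 2310, 2071, 4 and 1415. With the 12 WT-labelled libraries, BMDM number 3 included, they were 0, 442, 105, 0 and 92, with 335 differences at an unadjusted p under 0.05 by edgeR and 41 called by DESeq2. With numbers 1 and 2 only, an alternative added after seeing the data, they were 22, 1958, 2889, 5 and 1472. The added CRE libraries gave 384 differences, log2(FPKM + 1) with limma 279 differences and 13 opposite genes, and limma-voom 144 differences. BMDM number 1 alone gave 272 and 34 opposite genes, and total count scaling 172 differences, 5759 BMDM responses, 34 opposite and 3979 shared genes, both added after seeing the data. Omitting 1 library gave ranges of 63 to 275, 2809 to 4114, 2204 to 3744, 10 to 25 and 1839 to 2443. The causes were not tested. The sign of all 211 was kept in each omission, in 208 of them with 12 libraries and in 209 on log2(FPKM + 1).

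Signs of uncalled or floor-bound differences turned as follows. With the block, Scd2 was 0.208. On log2(FPKM + 1), Ifit1 was -0.18, Cxcl10 -0.50, Ccr7 2.08, Arg1 -1.2, Tnfsf4 1.21, Il6 0.93, St6gal1 0.049, Cdca7 0.65 and B3gnt7 -1.78, the last called there (adjusted p = 0.015, limma). With BMDM number 1 alone, Ifit1 was -0.24, Scd2 2.22, Arg1 -1.19, Rab3il1 0.14, Il12b -0.13, Il1b -0.91, St6gal1 0.51 and Cdca7 0.35. With 12 libraries, Ifit1bl1 was 0.13, Ifit3b 2.81, Iigp1 2.48, Nos2 1.17 and Il6 1.40. With numbers 1 and 2, Scd2 was 0.026, Ifit1bl1 0.29 and Ifit3b 0.85. With total counts, Rsad2 was 0.089, Scd2 0.13 and Pald1 0.084. Scd2 was 0.053 with no filter, 0.012 with DESeq2 and 0.51 with limma-voom. When 1 library was left out, the ranges were -1.28 to 0.54 for Rsad2, -0.30 to 1.197 for Ifit1, -0.74 to 2.21 for Scd2, -1.17 to 0.19 for Ifit1bl1, -0.38 to 1.88 for Arg1, -2.10 to 0.83 for Ifit3b, -0.26 to 0.73 for Il12b, -0.57 to 1.79 for Il1b, -0.79 to 0.42 for Pald1, -0.58 to 0.41 for St6gal1, -1.14 to 0.022 for Cdca7 and -0.30 to 4.32 for B3gnt7. The 95% interval of the difference had a median width of 1.72 on the log2 scale, which limits what 2 BMDM libraries a group can show.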
